A study of Homo sapiens with 3 samples.

Results

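The genes described here build, cross-link, cut and protect the extracellular matrix: collagens, laminins, lysyl oxidases, other matrix proteins, matrix metalloproteinases (MMPs), ADAMTS proteases and the tissue inhibitors of metalloproteinases (TIMPs). They were chosen by gene symbol, through the family names COL, LAM, LOX, MMP, ADAMTS and TIMP followed by a number. Added to these were 11 single genes such as SPARC, FN1 and THBS1. The choice was made with earlier results of these data known. Of 20344 genes in the files, 118 were members. One of them, COL4A3BP, has a collagen-like symbol but encodes a ceramide transfer protein, which leaves 117 matrix genes.

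Messenger RNA was sequenced from A375 melanoma cells, an established human line with mutant BRAF, in a study of propranolol, a blocker of beta-adrenergic receptors, and of resistance to the BRAF inhibitor vemurafenib. The library titled A375, Prop carries the cell line label A375 and is called the A375 library here. The library titled A375-VR, Prop carries the label A375-VR, which the labels do not spell out, and is called the A375-VR library. Both titles include Prop, presumably propranolol, so by title both libraries come from cells given the drug, and no library without it is compared here. The protocol attached to each sample speaks only of the A375-VR line, with 24 h of DMSO or of the drug (20 µM). By title the treatment is thus shared, as far as the labels can be trusted. The cell line, the culture and the library preparation cannot be told apart as the source of a difference. The remaining sample, with the title A375-VR, DMSO, is not used here. Its cell line label is A375, against its title, so titles and cell line labels also disagree within the series. Whether A375-VR is 1 clone is not stated in the labels.

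There was 1 library per group and hence no replicate check, no test and no p-value. Values are FPKM, that is, reads or fragments scaled by gene length and by library total, so levels of genes can be compared per length. Where a sentence gives a pair of values, the A375 library comes first. The totals behind them were 17811339 in the A375 library against 16438482 in the A375-VR one, recovered from the steps of the FPKM values. A ratio given after such a pair is the FPKM of the A375-VR library over that of the A375 library, without pseudocount, and the range in parentheses is a 95% Clopper-Pearson interval on recovered reads, which covers counting error only. Differences are of log2(FPKM + 1), a scale that understates the change of low genes, and one of 1 or more in size is called 2-fold. Only genes that reached 1 FPKM in either library (the filter) enter the counts.

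As background, collagens are triple helices of alpha chains, some assembling into fibrils and others into the sheets of basement membranes, where laminins, trimers of an alpha, a beta and a gamma chain, form a second network that nidogens tie to collagen IV. Lysyl oxidases cross-link collagen and elastin, MMPs and ADAMTS proteases cut matrix proteins, and TIMPs block the MMPs. Melanoma cells make part of the matrix that surrounds them, and the fibrillar collagens of skin are mostly the product of fibroblasts.

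Promoter sequences are shown first for members with large differences that had a promoter window, and for a pair of adjacent genes. Promoter windows in the RefSeq table (build GRCh38.p14) were matched for 83 of 118 members. There was none for MMP17 and COL9A3, which were also 2-fold higher in the A375-VR library. The 250 bases before the start are printed 5′ to 3′ on the strand of the gene for 4 of the members with a 2-fold higher level in the A375-VR library and for THBS1, the member with the largest difference downward. The last line is the 126 bases between the starts of COL4A1 and COL4A2, which lie head to head on chromosome 13. It is read towards COL4A2, from the COL4A1 start to the COL4A2 start, whatever the order in its label. Capitals mark any match, on either strand, to the AP-1 motif TGAGTCA, the GC box GGGCGG, the motif CCAAT, the motif TATAAA or the E-box CATGTG.
SPARC (chr5:151686916-151687165, minus strand): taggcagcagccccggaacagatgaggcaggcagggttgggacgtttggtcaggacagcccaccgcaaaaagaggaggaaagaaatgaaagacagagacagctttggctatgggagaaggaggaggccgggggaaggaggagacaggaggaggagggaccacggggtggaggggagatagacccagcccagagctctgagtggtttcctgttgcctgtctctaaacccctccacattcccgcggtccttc
TGFBI (chr5:136028738-136028987, plus strand): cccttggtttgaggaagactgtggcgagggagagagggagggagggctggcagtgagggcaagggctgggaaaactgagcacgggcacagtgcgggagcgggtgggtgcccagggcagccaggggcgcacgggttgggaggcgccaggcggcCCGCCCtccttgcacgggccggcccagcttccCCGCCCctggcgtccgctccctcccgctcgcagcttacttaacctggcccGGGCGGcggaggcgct
LAMA4 (chr6:112254568-112254817, minus strand): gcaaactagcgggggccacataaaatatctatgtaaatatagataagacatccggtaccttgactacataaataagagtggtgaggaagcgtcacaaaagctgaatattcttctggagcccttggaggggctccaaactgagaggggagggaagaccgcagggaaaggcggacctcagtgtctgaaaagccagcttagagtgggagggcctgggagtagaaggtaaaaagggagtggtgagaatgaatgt
FBN1 (chr15:48644971-48645220, minus strand): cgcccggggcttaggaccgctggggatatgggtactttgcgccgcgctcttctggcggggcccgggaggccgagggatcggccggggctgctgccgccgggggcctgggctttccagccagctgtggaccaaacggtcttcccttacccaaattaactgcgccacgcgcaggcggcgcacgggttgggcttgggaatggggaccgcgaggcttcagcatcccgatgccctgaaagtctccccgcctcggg
THBS1 (chr15:39580829-39581078, plus strand): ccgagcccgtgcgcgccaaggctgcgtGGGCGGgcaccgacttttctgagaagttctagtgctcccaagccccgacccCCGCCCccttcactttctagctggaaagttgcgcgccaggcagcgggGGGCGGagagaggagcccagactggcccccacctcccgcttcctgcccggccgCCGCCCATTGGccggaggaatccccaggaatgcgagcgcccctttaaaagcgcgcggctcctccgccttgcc
COL4A2 to COL4A1 (chr13:110307158-110307283, plus strand): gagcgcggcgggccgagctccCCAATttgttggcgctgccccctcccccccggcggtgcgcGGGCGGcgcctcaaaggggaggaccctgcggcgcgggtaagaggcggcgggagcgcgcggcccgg

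No motif was common to all of the printed stretches. SPARC, LAMA4 and FBN1 held no match to any of the 5 motifs in these 250 bases. In TGFBI the GC box matched at 98, 66 and 16 bases before the start, and in THBS1 at 223, 172, 125 and 72 bases, the last of them abutting a CCAAT match at 66 bases. Between COL4A2 and COL4A1 there was a CCAAT match at 105 and a GC box at 65 bases before the COL4A2 start. Of 37 members past the filter with a window, 29 (78.4%) held a GC box, against 69.1% of 8919 genes past the filter and 42.3% of all 27305 promoter windows, 1 per gene. CCAAT was held by 9 of these 37 members (24.3%, against 35.9% of genes past the filter), and TATAAA by 4 (10.8% against 4.92%). None of the 37 held the AP-1 motif or the E-box, which were in 2.43% and 5.16% of genes past the filter. At shares this low, no match in 37 windows is little different from the share over all genes. MMP1, MMP2, MMP3, MMP16, MMP17 and COL9A3 are among the members past the filter without a window, so their promoters were not searched. The GC content of the printed stretches ran from 48.4% in LAMA4 to 80.2% between the collagen IV genes. A match describes letters only.

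Most matrix genes that were detected had a higher level in the A375-VR library, by less than 2-fold in most cases. In such bulk samples fewer cells of a type and less RNA per cell cannot be told apart. Of the 118 members, 50 passed the filter, 45 of them in both libraries and 5 through the A375-VR library alone. These 5 were COL9A2, COL11A2, COL19A1, MMP8 and ADAMTS15, and each had to be higher there to pass. Of the 50, 6 were at least 2-fold higher, against a background of 3.14% of all 10761 genes past the filter, and 0 were at least 2-fold lower, against a background of 0.613%. The 6 were TGFBI, MMP17, LAMA4, COL9A3, SPARC and FBN1. The difference was above 0 for 42 of 50 (84.0%), against 60.3% of all genes, and the median was 0.57 against 0.10. With a filter on the mean of both libraries, which does not favour the higher one, 40 of 48 were above 0 and 6 were 2-fold higher. Over all 118 members, unfiltered, 80 differences were above 0, 28 below and 10 at 0, with a median of 0.14 against 0.00 for all genes.

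The direction of each of the 50 members was the same after centring on the median ratio, with a trimmed mean of log ratios and after rescaling to a common sum. Centring takes the median of all genes from 0.10 to 0.00, and it left the members' median at 0.46. Among all genes 2-fold apart, 83.7% were higher in the A375-VR library as deposited and 73.0% after centring. The counting interval of the ratio lay above 1 for 42 members (84.0%, against 43.6% of all genes) and below 1 for 6 (against 26.4%). It held 1 for COL13A1 and ADAMTS12. For 7 of the 50 the exons overlap those of a coding gene on the opposite strand, whose reads may be counted with theirs. Members took 0.405% of the FPKM sum in the A375 library against 0.613% in the A375-VR one. A few genes carried that sum. The 5 highest members made up 53.8% of it in the A375 library against 54.6% in the A375-VR one, with SPARC first in both.

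**Figure D1:**
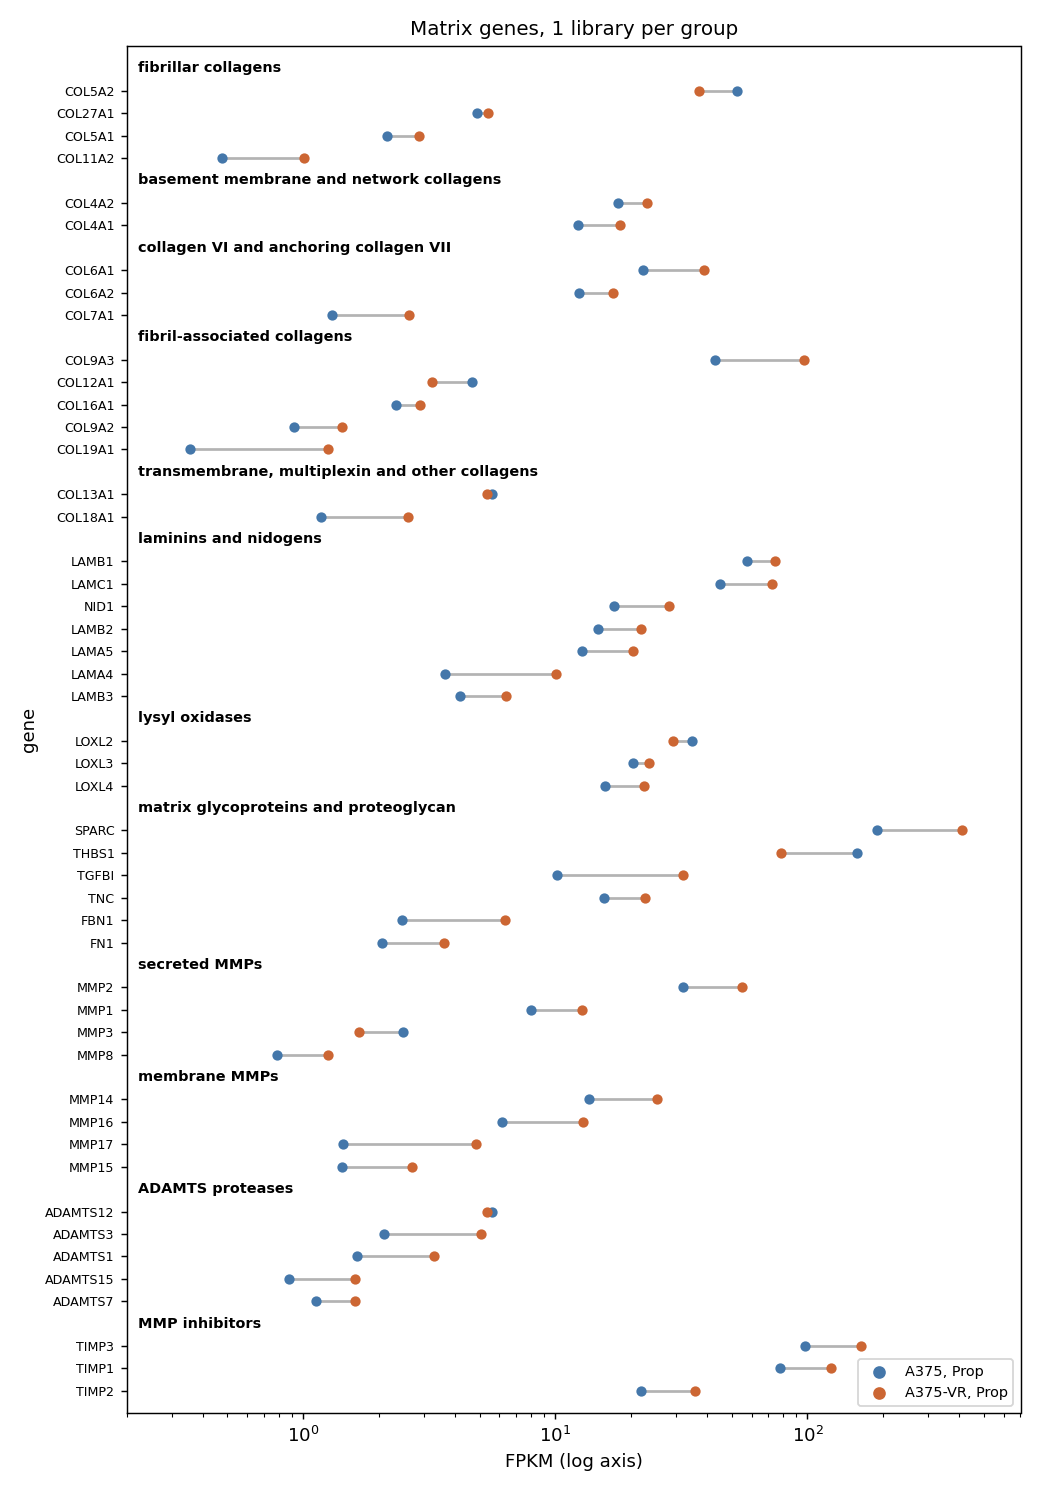
FPKM (log axis) of 48 of the 49 matrix genes past the filter, grouped by role, in the library titled A375, Prop (blue) and the library titled A375-VR, Prop (orange), with 1 point per library and no error bars. Most orange points lie to the right of the blue ones; THBS1, COL5A2, LOXL2, COL12A1 and MMP3 are clear exceptions.

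Matrix glycoproteins held the largest differences in both directions. SPARC, a collagen-binding glycoprotein that melanoma cells secrete, had 188 and 411 FPKM, a ratio of 2.19 (2.14 to 2.23), and was the most abundant member in each. TGFBI, a secreted protein that binds collagen and integrins, had 10.2 and 32.1 FPKM, a ratio of 3.15 (2.97 to 3.35) and a difference of 1.57, the largest of the 50. FBN1, the main protein of microfibrils, had 2.46 and 6.32 FPKM, a ratio of 2.57 (2.35 to 2.81), although its difference of 1.08 became 0.98 after centring or with the trimmed mean. These 3 genes, on chromosomes 5, 5 and 15, were all higher in the A375-VR library.

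THBS1 went the other way. It encodes thrombospondin 1, a matrix glycoprotein that can activate latent TGF-beta, and had 157 and 78.5 FPKM, a ratio of 0.499 (0.488 to 0.511) from 23052 and 10619 reads. Its difference of -0.99 lay just inside the 2-fold limit, and it was -1.11 after centring. SPARC and THBS1 therefore stood near each other in the A375 library, with a level ratio of 1.19, and apart in the A375-VR library, with a ratio of 5.23. The gene FSIP1 overlaps exons of THBS1 on the opposite strand, at 0.390 and 0.423 FPKM.

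TNC and FN1, each with several splice forms, were higher by smaller amounts. TNC, tenascin C, had 15.6 and 22.8 FPKM, a ratio of 1.46 (1.32 to 1.61). FN1, fibronectin, had 2.04 and 3.61 FPKM, a ratio of 1.77 (1.60 to 1.96). Versican (VCAN), THBS2 and FBN2 did not reach 1 FPKM in either library. Of the 9 genes of this group, 6 passed the filter, with a median difference of 0.84.

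Levels of collagen genes ran from 0 to 97.2 FPKM. Of 44 collagen genes, 16 passed the filter. Of these, 13 were above 0 (81.25%, against 60.3% of all genes). The 13 include COL9A2, COL11A2 and COL19A1, which passed through the A375-VR library alone and had to be higher there. Of the 16, 1 was 2-fold higher (against 3.14%). That gene was COL9A3, a chain of the fibril-associated collagen IX, with 42.8 and 97.2 FPKM, a ratio of 2.27 (2.18 to 2.36). It was the most abundant collagen gene in the A375-VR library, while COL5A2 was in the A375 library. TCFL5, which overlaps it by 155 bases on the opposite strand, had 12.1 and 9.53 FPKM, the other direction.

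Collagens I and III, the main fibrillar collagens of connective tissue, were near 0. COL1A1 had 0.314 and 0.149 FPKM, COL1A2 had 0.0604 and 0.0982, and COL3A1 had 0 and 0.0268, from 0 and 3 reads. COL5A2, a chain of the fibrillar collagen V, was abundant, with 52.5 and 37.3 FPKM, a ratio of 0.711 (0.685 to 0.738). Its neighbour COL3A1, 19.2 kb away on chromosome 2 and transcribed towards it, was thereby beside an abundant gene and itself at or near 0 in both libraries. COL27A1 had 4.88 and 5.42 FPKM, a ratio of 1.11 (1.03 to 1.20), and COL5A1 had 2.15 and 2.88. COL11A2 was low, with 0.475 and 1.01 FPKM.

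Basement membrane collagen was represented by the ubiquitous pair of collagen IV chains. COL4A1 had 12.3 and 18.0 FPKM, a ratio of 1.46 (1.40 to 1.53). COL4A2 had 17.8 and 23.1 FPKM, a ratio of 1.2998 (1.26 to 1.34). Both genes of the head-to-head pair had the higher level in the A375-VR library. The level of COL4A1 relative to COL4A2 was 0.693 and 0.780. The other such pairs of the family were low: COL4A3 and COL4A4 stayed under 0.05 FPKM, and COL4A6 and COL4A5 had at most 0.118 and 0.933.

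Collagen VI, which forms beaded filaments next to basement membranes, had 2 abundant chains. COL6A1 had 22.3 and 39.0 FPKM, a ratio of 1.75 (1.66 to 1.85). COL6A2, its neighbour on chromosome 21, had 12.4 and 17.0 FPKM, a ratio of 1.37 (1.27 to 1.48), and these intervals do not overlap. COL6A3, the remaining chain of the usual trimer, had 0.543 and 0.564 FPKM, so that COL6A1 lay 41.1-fold above it in the A375 library against 69.2-fold in the A375-VR one. COL7A1, the anchoring fibril collagen of skin, had 1.303 and 2.63 FPKM, a ratio of 2.02 (1.73 to 2.36).

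Unequal chain levels recurred in collagens V and IX. COL5A2 lay 24.4-fold above COL5A1 in the A375 library against 12.9-fold in the A375-VR one. COL9A3 lay 46.6-fold and 68.1-fold above COL9A2, whose levels were 0.919 and 1.43 FPKM. The remaining chain gene of collagen IX, COL9A1, rested on 1 and 2 reads. Levels of mRNA do not give the amounts of the chains.

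**Figure D2:**
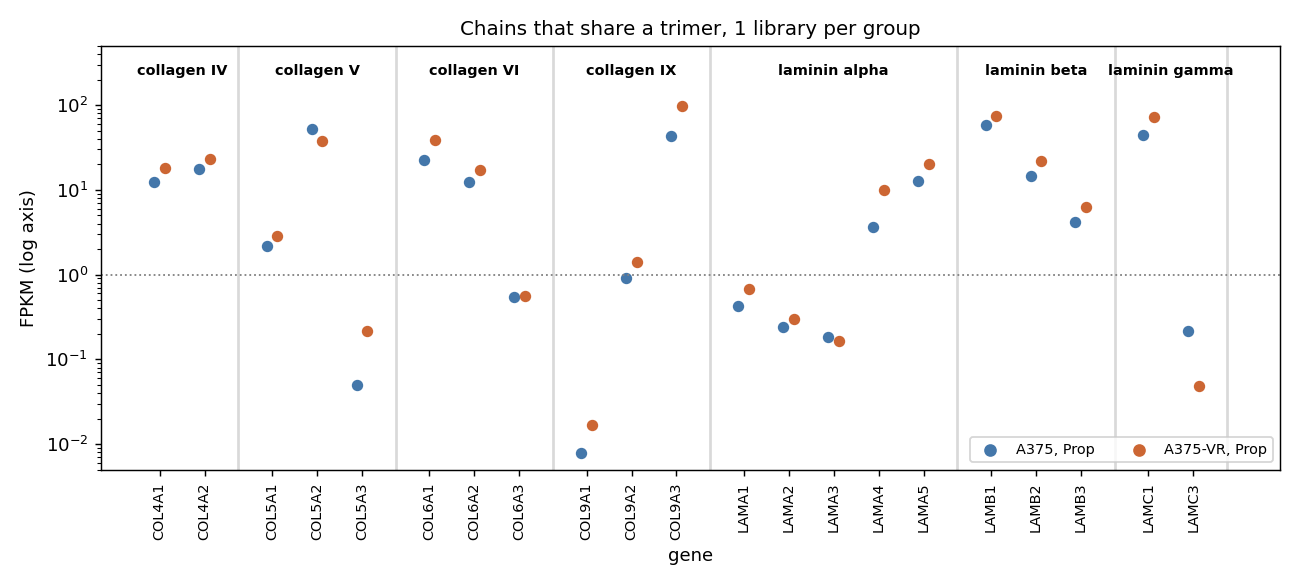
FPKM (log axis) of collagen and laminin chain genes in the library titled A375, Prop (blue) and the library titled A375-VR, Prop (orange), with 1 point per library. Collagen genes are grouped by collagen type and laminin genes by class (alpha, beta, gamma), of which a trimer takes 1 chain each. The dotted line marks 1 FPKM, and LAMB4, at 0 in 1 library, is left out. COL4A1 and COL4A2 lie close together, while COL5A2, COL9A3, LAMB1 and LAMC1 lie far above other chains of their families.

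Other fibril-associated and membrane collagens went both ways. COL12A1 had 4.66 and 3.23 FPKM, a ratio of 0.693 (0.627 to 0.764). COL16A1 had 2.34 and 2.89 FPKM, a ratio of 1.24 (1.08 to 1.42). COL19A1 had 0.356 and 1.26 FPKM, a ratio of 3.53 (2.59 to 4.88) from 54 and 176 reads, yet a difference of only 0.74 with the pseudocount of 1. LMBRD1 overlaps COL19A1 by 85 bases on the opposite strand, with 1.05 and 1.96 FPKM, the same direction. The transmembrane collagen gene COL13A1 had 5.60 and 5.33 FPKM, and its ratio of 0.952 (0.845 to 1.07) was indistinguishable from 1 at this depth. COL18A1, whose product releases endostatin, had 1.18 and 2.60 FPKM, a ratio of 2.20 (1.84 to 2.65). That value is uncertain because SLC19A1 overlaps COL18A1 by 1563 bases on the opposite strand, with 5.69 and 3.47 FPKM, and the use of strand in counting is not given in the sources used here.

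Among laminins, the chains with the highest levels were those of the widespread beta 1 and gamma 1 types. LAMB1 had 57.6 and 74.5 FPKM, a ratio of 1.29 (1.26 to 1.33), with DLD overlapping it by 300 bases on the opposite strand at 36.0 and 35.6 FPKM. LAMC1 had 44.8 and 72.1 FPKM, a ratio of 1.61 (1.55 to 1.67). LAMB1 and LAMC1 were therefore close in level, with a ratio of 1.29 in the A375 library against 1.03 in the A375-VR one.

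Alpha chains set the type of a laminin trimer, and only 2 of the 5 alpha genes passed the filter. LAMA5 had 12.8 and 20.3 FPKM, a ratio of 1.59 (1.52 to 1.66), with ADRM1 overlapping it by 244 bases on the opposite strand at 100.5 and 81.2 FPKM. LAMA4, the alpha chain known from vessel and muscle laminins, had 3.64 and 10.05 FPKM, a ratio of 2.76 (2.53 to 3.01), the only laminin gene 2-fold higher. LAMA5 lay 3.50-fold above LAMA4 in the A375 library against 2.02-fold in the A375-VR one. LAMA1, LAMA2 and LAMA3 stayed between 0.166 and 0.671 FPKM.

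Of the other laminin chains, LAMB2 had 14.8 and 21.9 FPKM, a ratio of 1.48 (1.39 to 1.57). LAMB3, a chain of the epithelial laminin of hemidesmosomes, had 4.18 and 6.36 FPKM, a ratio of 1.52 (1.32 to 1.75). NID1, the linker between laminin and collagen IV, had 17.1 and 28.1 FPKM, a ratio of 1.65 (1.55 to 1.75), and NID2 had 0.395 and 0.514. Of the 14 laminin and nidogen genes, 8 passed the filter and 7 of those were above 0 (87.5%, against 60.3% of all genes). The median of the 8 was 0.58.

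Lysyl oxidases went both ways, and none was 2-fold apart on the log2(FPKM + 1) scale. LOXL2 had 34.95 and 29.3 FPKM, a ratio of 0.839 (0.798 to 0.882). LOXL3 had 20.3 and 23.5 FPKM, a ratio of 1.16 (1.08 to 1.24), and is uncertain because HTRA2 and DOK1 overlap it on the opposite strand by 936 and 216 bases. LOXL4 had 15.7 and 22.6 FPKM, a ratio of 1.44 (1.32 to 1.56). The order of levels within the libraries was LOXL2, LOXL3, LOXL4 in both. Below the filter, LOX itself had 0.202 and 0.559 FPKM, a ratio of 2.76 (1.62 to 4.89) from 20 and 51 reads. LOXL1 had 0.432 and 0.134 FPKM, a ratio of 0.310 (0.122 to 0.697) from 28 and 8 reads.

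**Figure D3:**
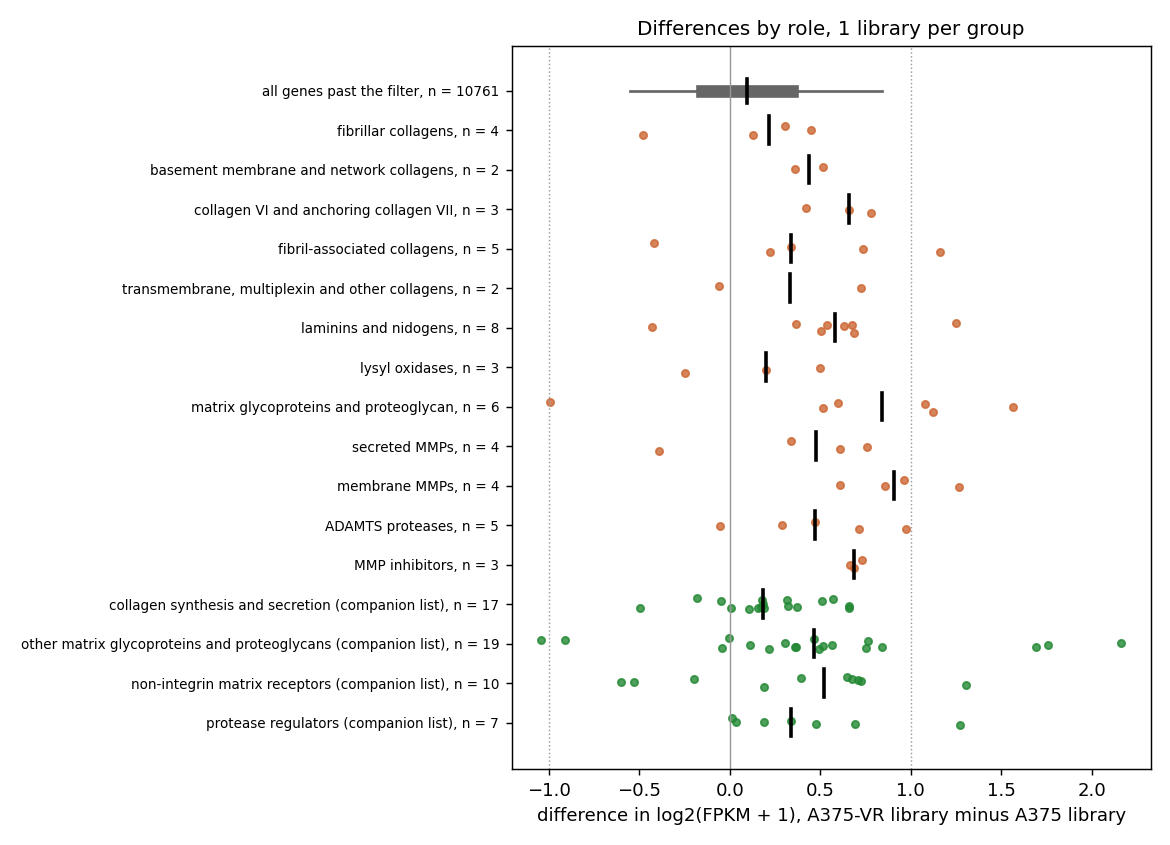
Difference in log2(FPKM + 1), A375-VR library minus A375 library, for members past the filter by role (orange) and for 4 lists of companion genes (green), with 1 point per gene and a black bar at the median; for all 10761 genes the thin line spans the middle 90%, the thick line the middle 50%, and dotted lines mark 2-fold. The membrane MMPs, with a median of 0.91, and the TIMPs, with 0.69, lie wholly above 0, and THBS1 is the lowest orange point, at -0.99.

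Of the 6 membrane MMPs, proteases held at the cell surface, 4 passed the filter, and each of these had the higher level in the A375-VR library. MMP14, which cuts collagen and activates pro-MMP2, had 13.6 and 25.4 FPKM, a ratio of 1.87 (1.73 to 2.02). MMP17, anchored by a glycolipid, had 1.43 and 4.85 FPKM, a ratio of 3.39 (2.70 to 4.28), the largest ratio of any MMP past the filter. MMP16 had 6.14 and 12.9 FPKM, a ratio of 2.10 (1.97 to 2.25), and a difference of 0.96 that reached 1.06 with a pseudocount of 0.1. Those 3 genes lie on chromosomes 14, 12 and 8. MMP15 had 1.42 and 2.70 FPKM, a ratio of 1.90 (1.496 to 2.41), while MMP24 and MMP25 stayed under 0.18.

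Among the 16 secreted MMPs, 4 passed the filter and 5 were at 0 in both libraries. MMP2, a gelatinase, had 32.0 and 54.8 FPKM, a ratio of 1.71 (1.63 to 1.80), and was the most abundant protease of the set. The other gelatinase gene, MMP9, had 0.769 and 0.234 FPKM, from 32 and 9 reads, the opposite direction at a low level. MMP1, the interstitial collagenase, had 8.04 and 12.8 FPKM, a ratio of 1.59 (1.28 to 1.98). MMP3, stromelysin 1, had 2.49 and 1.66 FPKM, a ratio of 0.667 (0.469 to 0.940). MMP8, a collagenase best known from neutrophils, had 0.784 and 1.26 FPKM, from 48 and 71 reads.

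MMP1, MMP3 and MMP8 belong to a cluster of 9 MMP genes that spans 435 kb of chromosome 11, and they were its only members past the filter. Within it MMP7, MMP20 and MMP27 were at 0 in both libraries, and MMP12 had 1 read in all. MMP10, which lies 8.77 kb from MMP1, had 0.224 and 0.761 FPKM from 7 and 22 reads, and MMP13 had 0.436 and 0.494. The cluster held genes at 0 beside genes with several FPKM, and MMP1 and MMP3, 37.6 kb apart, differed in direction between the libraries.

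The TIMP genes were more abundant than most of their target proteases and differed by nearly the same factor. TIMP1 had 77.6 and 124 FPKM, a ratio of 1.59 (1.51 to 1.68). TIMP2, which takes part in the activation of pro-MMP2 by MMP14, had 21.9 and 35.9 FPKM, a ratio of 1.64 (1.55 to 1.73). TIMP3, which binds to the matrix, had 98.0 and 163 FPKM, a ratio of 1.67 (1.60 to 1.74). These 3 intervals overlap each other and that of MMP2. TIMP4 had 1 read in the A375 library against 0 in the A375-VR one. The level of TIMP2 relative to MMP2 was 0.686 in the A375 library against 0.656 in the A375-VR one, and MMP2 lay 2.36-fold and 2.16-fold above MMP14. Summed over each family, the TIMPs had 198 and 323 FPKM, the secreted MMPs 45.2 and 73.0, and the membrane MMPs 22.8 and 46.0.

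**Figure D4:**
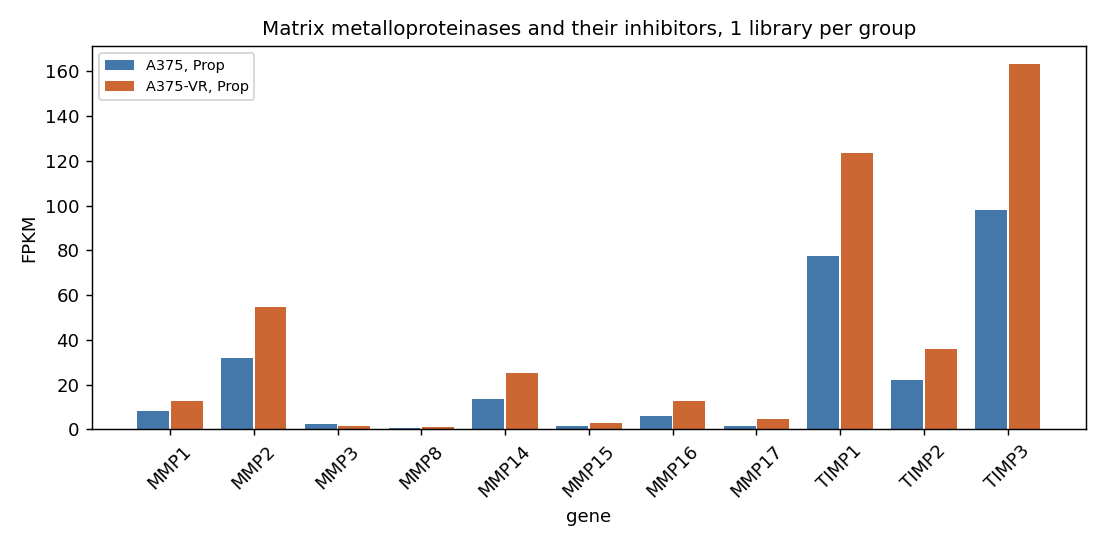
FPKM of the MMP genes past the filter and of TIMP1 to TIMP3, in the library titled A375, Prop (blue) and the library titled A375-VR, Prop (orange), with 1 bar per library and no error bars. TIMP3 and TIMP1 have the tallest bars, MMP2 the tallest among proteases, and each orange bar except that of MMP3 is above its blue one.

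ADAMTS proteases were mostly low, with 5 of 19 past the filter. Of those, 4 were above 0 (80%, against 60.3% of all genes) and none was 2-fold apart. The 4 include ADAMTS15, which passed through the A375-VR library alone and had to be higher there. ADAMTS3, which removes the amino propeptide of procollagens and activates VEGF-C, had 2.09 and 5.06 FPKM, a ratio of 2.42 (2.09 to 2.81), and its difference of 0.97 passed the 2-fold limit, at 1.24, with a pseudocount of 0.1. ADAMTS1, a protease of versican and aggrecan, had 1.63 and 3.31 FPKM, a ratio of 2.03 (1.71 to 2.42). ADAMTS12 had 5.60 and 5.37 FPKM, and its ratio of 0.958 (0.873 to 1.05) was indistinguishable from 1 at this depth. ADAMTS7 and ADAMTS15 had ratios of 1.42 (1.15 to 1.76) and 1.83 (1.40 to 2.40). The fibrillar procollagen substrates COL1A1, COL1A2 and COL3A1 were, as given above, under 0.32 FPKM in both libraries.

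Of the 68 members under the filter, 10 were at 0 in both libraries, 14 were at 0 in 1 library, and 44 were above 0 in both, with a highest level of 0.933 FPKM in COL4A5. Many ratios in this range rest on few reads. COL2A1 had 6 and 31 reads and ADAMTS9 at least 4 and 19, both higher in the A375-VR library. For ADAMTS9 the recovered length was 2670 bases against 10680 in its exons, so its true counts may be larger. LAMC3 had 29 and 6 reads, and COL8A1 had 64 and 29, both lower. Near the 2-fold limit, MMP16 and ADAMTS3 were just below it and FBN1 just above. COL4A3BP, the one member that is no matrix gene, had 2.35 and 5.31 FPKM, a ratio of 2.26 (2.07 to 2.47). Without it 41 of 49 members were above 0, with a median of 0.54.

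Genes that act with the members were described through 4 companion lists, and these did not all look alike. The machinery that folds and modifies collagen had a median difference of 0.18 over 17 genes past the filter, with 14 above 0 and none 2-fold apart, against 0.10 and 60.3% above 0 for all genes. After centring or with the trimmed mean that median was 0.07. P3H2, at 1.77 and 0.966 FPKM, passed the filter through the A375 library alone, so it had to be lower in the A375-VR one. P4HA1 and P4HA2, alpha subunits of the prolyl hydroxylase, had ratios of 1.62 (1.48 to 1.77) and 1.74 (1.49 to 2.04). SERPINH1, the collagen chaperone HSP47, had 30.8 and 29.8 FPKM, a ratio of 0.967 (0.921 to 1.02), indistinguishable from 1.

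Other matrix glycoproteins and proteoglycans had a median of 0.46 over 19 of 35 genes. Of the 19, 15 were above 0 (78.9%, against 60.3% of all genes). By at least 2-fold, 3 were higher and 1 lower, against 3.14% and 0.613% of all genes. SMOC1 and FBLN1 (0.886 and 1.42 FPKM) passed the filter through the A375-VR library alone, so each had to be higher there. SPP1, osteopontin, had 9.55 and 46.3 FPKM, a ratio of 4.85 (4.35 to 5.42). SMOC1, a basement membrane protein related to SPARC, had 0.617 and 4.47 FPKM, a ratio of 7.25 (5.34 to 10.03). CTHRC1, also 2-fold higher, had 5.79 and 21.0 FPKM, and HAPLN1, a link protein of hyaluronan matrix and the gene that was lower, had 13.7 and 6.11. The differences of SPP1 and SMOC1, 2.17 and 1.76, were larger than that of any member.

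Non-integrin receptors for matrix had a median of 0.52 over 10 genes. Of these, 7 were above 0 (70%), near the 60.3% of all genes, and 1 was at least 2-fold higher (against 3.14%). The syndecans, which carry heparan sulfate, went apart. SDC3 had 2.52 and 7.70 FPKM, a ratio of 3.06 (2.69 to 3.49), and SDC2 a ratio of 2.01 (1.501 to 2.70), whereas SDC1 had 44.1 and 30.3 FPKM and SDC4 36.8 and 32.0. Protease regulators had a median of 0.34. All 7 genes past the filter lay above 0, against 60.3% of all genes, and 1 was at least 2-fold higher, against 3.14%. SERPINE2, an inhibitor of serine proteases, had 206 and 499 FPKM, a ratio of 2.42 (2.38 to 2.47), and FURIN, the convertase that activates membrane MMPs, had 21.3 and 35.04, a ratio of 1.64 (1.55 to 1.74).

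Since fibroblasts make much of the matrix in tissue, markers of other cell types were read beside these values. Of 10 fibroblast markers outside the members, 4 passed the filter, and the summed level of all 10 was 12.3 FPKM in the A375 library against 14.8 in the A375-VR one, mostly from TWIST2 and LUM. The genes LUM, DCN and POSTN are also in the companion list of matrix glycoproteins. The 4 were TWIST2 at 6.94 and 6.90 FPKM, LUM at 2.99 and 4.89, PDGFRB at 1.38 and 1.5002, and ACTA2 at 0.528 and 1.06. Of the other 6, PDGFRA, DCN, THY1, POSTN and FAP stayed at or under 0.288 FPKM and PDPN was at 0 in both. Of 6 endothelial markers only KDR passed, at 0.394 and 1.84 FPKM, and the list summed to 0.591 and 2.12. Of 6 leukocyte markers none passed, with PTPRC, CD3E and CD68 at 0 in both and sums of 0.0595 and 0.752. Keratinocyte markers summed to 2.88 and 3.52 FPKM, nearly all of it KRT14, with TP63, DSG3 and KRT1 at 0.

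Melanocyte lineage markers passed the filter in 3 of 6 cases and did not follow 1 pattern. SOX10 had 65.3 and 150 FPKM and S100B 3.72 and 12.6, while MITF had 6.47 and 3.47. The pigment cell genes PMEL, MLANA and TYR were at or near 0, at most 0.530 FPKM, so the label of melanoma cells rests here on SOX10, S100B and MITF. That these markers differ between the libraries is given as a value, and their part in the matrix differences was not tested.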

How the data were processed

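RNA was measured in 3 samples, of which 2 had a file that was used. Per the series design text among the labels, the TruSeq libraries were stranded, the paired reads had 150 bp, and TopHat 1.3.3 placed them on GRCh37. For the counting tool, annotation, filters and use of strand, a statement is not given in the sources used here. FPKM is the unit the authors deposited, with 1 value per gene and library. From them log2(FPKM + 1) was taken and the A375 library subtracted from the A375-VR library (Python 3.11.15, pandas 2.3.3, SciPy 1.17.1), and genes had to reach 1 FPKM in either library. Groups follow the sample titles. Nothing in the labels gives separate cultures, and with 1 library per group no test was made.

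Reads were recovered as whole numbers that give the FPKM of a gene in both libraries (relative tolerance 1e-06). How the totals relate follows from the FPKM steps, and their common factor was the one of 12 that made the most recovered lengths match the summed exons of GENCODE 44 (14.9% of those sampled; the runner-up had 9.40%). Reads are the smallest that fit, so the counts given can be too low and the intervals too wide. PCR copies are not independent molecules, which the intervals do not cover. Simulated data were also run, but no outcome is given here. Nothing about the recovered reads, the totals or the intervals is therefore drawn from that simulation.

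Members and lists were chosen with earlier results of these data known. Named genes are members at least 2-fold apart, the 2 most abundant and the lowest difference of each role, the 2 largest differences of each companion list, and a fixed set with the TIMPs, MMP2, MMP14, COL4A1 and COL4A2. Some genes that the rule takes are left out of the text. Others are named to account for the members or picked once their values were known. The alternatives were a pseudocount of 0.1, no filter, a filter at 5, centring, a trimmed mean and a common sum.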

Additional observations from a re-analysis of the deposited data

How the results depend on the processing

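With 1 library per group, no library could be left out, and no paired analysis was possible because the groups share no replicate number beyond 1. Between 5 and 13 members were at least 2-fold higher in every setting run, and at most 1 was 2-fold lower. The count was 11 higher and 1 lower with a pseudocount of 0.1, and 13 higher and 1 lower after rescaling to a common sum, where a pseudocount weighs less against the values. The common sum also let 74 members past the filter. Centring and the trimmed mean each gave 5 higher and 1 lower, the latter being THBS1. Unfiltered, 80 members were above 0 and the median was 0.14, since 68 more members, near 0 FPKM, enter. Over all genes the 2-fold counts were 689 higher and 140 lower with the pseudocount of 0.1, 802 and 150 with the common sum, and 101 lower both with centring and with the trimmed mean. The median of the fibrillar collagens, at 0.21 over 4 genes, was -0.18 with the filter at 5, over COL5A2 and COL27A1. The filter on the mean of both libraries was chosen after seeing the data. Depth limits many members under 1 FPKM, whose ratios rest on few reads, but not all of them: COL6A3 had 190 and 182 reads.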
